A study of Homo sapiens with 12 samples.

Results

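The clustered histone genes carry the symbols HIST1H, HIST2H, HIST3H and HIST4H, and 53 of them were found among the 26641 genes of the count table by taking every symbol with one of these beginnings and 10 or more counts summed over 12 libraries. The table lists 73 such symbols. Left out were 11 listed at 0 throughout and 9 with a sum of 1 to 9 counts. Of the 11, HIST2H4A, HIST2H4B, HIST2H3A, HIST2H3C, HIST2H2AA3 and HIST2H2AA4 share 98.9% to 100% of their stretches of 150 bases with another copy. Whether reads that match several copies were counted is not given in the sources used here, so these 6 zeros do not show that the genes were silent, and ranks among the members do not cover them. RNA was sequenced from NCCIT, a human embryonal carcinoma line, after PiggyBac integration of a doxycycline-inducible dCas9 fusion and of a CARGO array, a string of guide RNA units. All 6 lines received doxycycline for 4 days. They were dCas9-VPR (CRISPRa, an activator) with LTR5HS Sp, LTR5HS Sa or nontarget Sp, and dCas9-KRAB (CRISPRi, a repressor) with the same arrays, in 2 replicates each. LTR5HS Sp guides bring the fusion to LTR5HS, the long terminal repeat of the HERVK endogenous retrovirus, and are called recruitment (2 libraries per fusion). LTR5HS Sa carries a guide scaffold of another Cas9 and nontarget Sp has no genomic target, and both are called control (4 libraries per fusion). Each combination was 1 drug-selected line, so that an effect of the array and a property of the line cannot be told apart. LTR5HS transcripts themselves were not analysed here.

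Histones wrap DNA into nucleosomes, with H2A, H2B, H3 and H4 in the core and linker histone H1 at the entry of the DNA. Their clustered genes are transcribed mainly in S phase, when new DNA must be packed, under control of the coactivator NPAT. Most of their mRNAs are not polyadenylated: they end just after a stem-loop that is bound by SLBP and cut with the help of the U7 snRNP, although longer polyadenylated forms are known for some of these genes in differentiating cells. The RNA was purified with oligo-dT beads, which bind poly(A), so the counts describe the histone RNA that this selection let through and not all histone mRNA. In bulk RNA, fewer cells of a type and less RNA per cell cannot be told apart.

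The stem-loop is shown because it is the feature that sets these mRNAs apart. The 200 bases after the stop codon were searched in the hg38 sequence for the 51 members with a coding transcript in the GENCODE gene models. A run of 16 bases of this form was found in 50 of these 51. It is written here as DNA in the sense direction with the loop in capitals. The most common form was shared by 29 members, among them HIST1H2BE at chr6:26184210-26184225 on the plus strand and HIST1H1E at chr6:26157095-26157110 on the plus strand. The second was found in 8 H4 genes, such as HIST1H4C at chr6:26104317-26104332 on the plus strand. The third was found in 8 members, including HIST1H2BK at chr6:27146366-27146381 on the minus strand. Another was found in HIST2H2AC alone, at chr1:149887391-149887406 on the plus strand. Further forms, not shown, were found in HIST1H4I and HIST1H4K, in HIST1H2AG and in HIST1H2AK.
29 members: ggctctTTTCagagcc
8 H4 members: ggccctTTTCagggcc
8 members: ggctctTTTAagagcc
HIST2H2AC: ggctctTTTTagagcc

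No such run was found for HIST1H3E. The pseudogenes HIST2H2BA and HIST2H2BC had no coding transcript in these models and were not searched. For 14 members the annotation also holds an end more than 100 bases past the stem-loop, as a polyadenylated form would need. Among the 53 members were 4 H1, 12 H2A, 18 H2B, 9 H3 and 10 H4 genes, and 42 lie in the HIST1 clusters on chromosome 6. All 53 symbols matched a RefSeq gene.

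Promoters of 48 members were available from RefSeq on GRCh38.p14, from 250 bases before to 50 bases after the start. Motifs were searched on both strands. The octamer ATTTGCAT stood in 12 of 16 H2B and 8 of 11 H2A promoters, in 0 of 4 H1, 0 of 8 H3 and 0 of 9 H4 promoters, and in 1.77% of all 35116 promoters of this length. TATAAA was present in 68.8% of the member promoters against 11.5% of all, and CCAAT in 85.4% against 34.6%. AAACACA, the H1 box, was in 4 of 4 H1 promoters and in 5.64% of all. Shown with these motifs in capitals are HIST1H2BE (chr6:26183511-26183810, plus strand), the member with the largest fall, HIST1H1E (chr6:26156079-26156378, plus strand), which also fell, and HIST1H1C (chr6:26056421-26056720, minus strand), the most highly expressed H1 gene, which did not pass the test.
HIST1H2BE: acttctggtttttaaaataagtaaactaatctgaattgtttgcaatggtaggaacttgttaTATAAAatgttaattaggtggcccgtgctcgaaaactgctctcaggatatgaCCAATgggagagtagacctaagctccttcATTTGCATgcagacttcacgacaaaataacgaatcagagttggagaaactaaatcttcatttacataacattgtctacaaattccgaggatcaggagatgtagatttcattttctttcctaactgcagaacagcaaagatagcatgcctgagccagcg
HIST1H1E: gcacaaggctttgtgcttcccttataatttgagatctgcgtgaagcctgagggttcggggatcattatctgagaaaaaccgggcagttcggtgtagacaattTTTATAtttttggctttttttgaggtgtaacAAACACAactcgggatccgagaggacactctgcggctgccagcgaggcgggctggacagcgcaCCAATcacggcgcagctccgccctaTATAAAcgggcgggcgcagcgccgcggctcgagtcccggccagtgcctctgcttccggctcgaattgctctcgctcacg
HIST1H1C: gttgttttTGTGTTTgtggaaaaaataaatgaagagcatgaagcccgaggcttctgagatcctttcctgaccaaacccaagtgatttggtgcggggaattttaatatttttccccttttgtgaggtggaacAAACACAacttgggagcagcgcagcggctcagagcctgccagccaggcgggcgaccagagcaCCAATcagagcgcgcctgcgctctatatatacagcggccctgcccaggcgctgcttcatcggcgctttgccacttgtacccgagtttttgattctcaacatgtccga

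Of the 9 members that fell with VPR recruitment, described below, 6 had the octamer, 6 had TATAAA, 9 had CCAAT and 3 had the H1 box. Among 27 other tested members with a promoter, 9 had the octamer, 18 TATAAA, 22 CCAAT and 1 the H1 box. A match only describes the letters of these windows.

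Library totals ranged from 13601701 to 69797411 counts, the highest by far in KRAB nontarget Sp replicate 2, and members made up 0.0203% to 0.0427% of the counts. A count of 3 corresponded to 0.0455 to 0.233 CPM (counts-per-million, with library sizes scaled by TMM), and these floors cover counting error only. Replicates of a line differed by more than sampling noise in all 6 lines. Markers of the labelled pluripotent state differed between fusions, and 10 of 10 were lower in the VPR than in the KRAB control lines. NANOG, a core pluripotency factor, was at 1.05 to 5.01 CPM in the VPR and 114 to 185 CPM in the KRAB control libraries, whereas HAND1, a mesoderm and trophoblast regulator, was at 146 to 279 and 4.19 to 15.5 CPM.

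Summed over the 53 members, the level was 235 and 210 CPM with VPR recruitment, 284 and 303 CPM in VPR LTR5HS Sa and 216 and 221 CPM in VPR nontarget Sp. The recruitment sums thus lay at the level of the nontarget Sp sums and below those of LTR5HS Sa. In the KRAB lines the sums were 275 and 323 CPM with recruitment, 279 and 345 CPM in LTR5HS Sa and 342 and 452 CPM in nontarget Sp. The library with 452 CPM is the deepest one. It also had the highest sum of 44 RNAs that carry no poly(A) tail, 1950 CPM against 340 to 1050 CPM in the other 11 libraries, including RMRP, the RNA of RNase MRP, at 50.5 CPM against 3.48 to 17.6 CPM. The part of such RNA in the histone values was not tested, and values without this library are given where the members' values move.

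**Figure D1:**
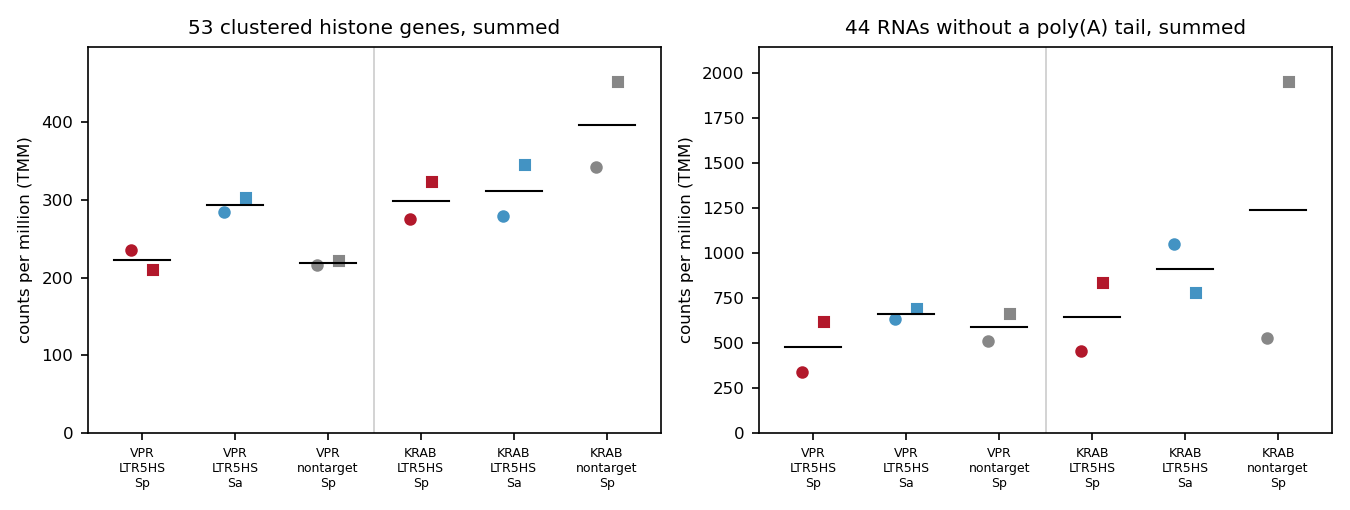
Summed level in CPM (TMM scaling, linear axis from 0) of the 53 clustered histone genes (left) and of 44 RNAs without a poly(A) tail (right) in each library, with circles for replicate 1, squares for replicate 2 and a line at the mean of the 2. KRAB nontarget Sp replicate 2 is the highest library in both panels, at 452 and 1950 CPM.

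Few members made up most of this RNA. The 5 with the highest CPM, HIST1H2BK, HIST1H1C, HIST1H2AC, HIST3H2A and HIST1H2BD, held 64.2% of the summed level. Per length, HIST1H1C, a linker histone, had a mean of 74.7 RPKM (CPM divided by the gene length in kilobases) over the 12 libraries and HIST1H2BK one of 71.7 RPKM. Their order differed by fusion: HIST1H1C was at 74 ± 16.9 and HIST1H2BK at 52.6 ± 8.19 RPKM in the VPR libraries (SD, n = 6), and at 75.4 ± 17.8 and 90.8 ± 19.4 RPKM in the KRAB libraries (SD, n = 6). HIST1H1C was the higher in 5 of 6 VPR libraries and HIST1H2BK in 5 of 6 KRAB libraries. They were followed by HIST1H2AC at 50.3, HIST3H2A at 41.1 and HIST1H2BD at 23.6 RPKM. Among the members, the highest H4 gene was HIST1H4H at 14.8 RPKM and the highest H3 gene HIST1H3H at 6.46 RPKM. A mean of 10 RPKM or more was reached by 11 members and 1 RPKM or more by 38. The 14 members with an annotated end past the stem-loop had a median of 9.32 RPKM and the 36 without one had 2.15 RPKM. HIST1H1C belongs to the second set. For some of the 14 the gene length of the count table leaves the far end out. HIST3H2A and HIST1H2BC had lengths of 496 and 438 bp, with annotated ends 22592 and 37155 bp past the stem-loop. The split thus describes the annotation and not which forms were counted.

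Some of these values are shared between genes. HIST1H4J and HIST1H4K, and HIST1H2AI and HIST1H2AJ, have stretches of 150 bases in common, in up to 89.5% of their windows, so their counts are uncertain. HIST1H3J, an H3 gene, and HIST1H2AM, an H2A gene, also share such stretches in their GENCODE transcripts, though their RefSeq spans do not overlap. Whether the annotation used for counting held these transcripts is not given. HIST1H4I lies within the span of HIST1H2BK, HIST2H2BF overlaps FCGR1A, and HIST2H2BC overlaps an H4 gene. The library kit did not mark strand, so reads of overlapping genes on opposite strands cannot be told apart.

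With VPR recruitment, 9 members fell and 0 rose among the 40 that passed the filter on low counts (edgeR quasi-likelihood test, Benjamini-Hochberg adjusted p under 0.05 over 16271 genes). They were the H1 genes HIST1H1E and HIST1H1D, the H2A gene HIST2H2AC and the H2B genes HIST1H2BE, HIST2H2BF, HIST1H2BH, HIST1H2BJ, HIST3H2BB and HIST1H2BG. The share that fell was 22.5% against 12.3% of all tested genes, and 15.7% of all tested genes rose. The median log2 fold change of the 40 was -0.56 against -0.02 over all tested genes, with 31 below 0. This median was -0.36 without VPR LTR5HS Sa replicate 1, -0.79 against LTR5HS Sa alone and -0.34 against nontarget Sp alone. The other 13 members were too low to be tested, at 1.2 CPM or less in every library. No H3 or H4 gene passed the test in this comparison, though the H3 gene HIST1H3C, which the filter removed, was called higher by DESeq2 and by edgeR with no filter. HIST1H3C is a member only through its counts in the VPR recruitment libraries.

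HIST1H2BE, an H2B gene, had the largest change. It was at 0.167 and 0.267 CPM in the VPR recruitment libraries (3 and 5 counts), at 1.87 and 1.49 CPM in LTR5HS Sa and at 1.5 and 1.89 CPM in nontarget Sp. Both recruitment values lay below every control value, and the values of the 2 control lines overlapped. The log2 fold change was -2.92 ± 0.39 (SE, adjusted p = 0.000931, edgeR), a 7.55-fold fall. It kept its direction and its call in all 15 alternative settings.

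The H1 genes did not move alike. HIST1H1E was at 1.67 and 1.44 CPM with VPR recruitment, at 7.32 and 7.4 CPM in LTR5HS Sa and at 4.7 and 3.68 CPM in nontarget Sp. The groups did not overlap, and HIST1H1E fell by 1.89 on the log2 scale (SE 0.36, adjusted p = 0.00605, edgeR). HIST1H1D was at 0.278 and 0.214 CPM against 1.79, 1.89, 1.96 and 0.631 CPM in the controls (5 and 4 counts in the recruitment libraries), with a log2 fold change of -2.64 ± 0.59 (SE, adjusted p = 0.0113, edgeR). Its lowest control, nontarget Sp replicate 2, stood apart from the other 3. HIST1H1C was at 68 and 49.5 CPM with recruitment, at 63.7 and 63 CPM in LTR5HS Sa and at 42.5 and 38.3 CPM in nontarget Sp. Its recruitment values overlapped the controls, and the change of 0.18 ± 0.24 (SE, log2) did not pass the test (adjusted p = 0.628, edgeR).

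The other H2B genes that fell changed less than HIST1H2BE. HIST2H2BF was at 1 and 0.909 CPM against 3.35, 2.93, 2.43 and 2.16 CPM in the controls, a log2 fold change of -1.5 ± 0.3 (SE). HIST1H2BH was at 0.891 and 0.695 CPM against 1.87, 2.83, 2.01 and 2.21 CPM, a log2 fold change of -1.49 ± 0.31 (SE). HIST1H2BJ was at 4.12 and 3.48 CPM against 7.59, 9.34, 5.89 and 7.36 CPM, a log2 fold change of -0.99 ± 0.24 (SE). In none of these 3 genes did recruitment and control libraries overlap. The genes that fell were picked by adjusted p in the same libraries, so a lack of overlap, here and above, is no separate support. The share of all genes without overlap was not computed. HIST3H2BB, on chromosome 1, was at 0.39 and 0.374 CPM against 0.803 to 1.1 CPM. HIST1H2BG was at 2.51 and 2.09 CPM against 3.21 to 5.18 CPM, and it was the call closest to the threshold (adjusted p = 0.0486, edgeR). The H2A gene HIST2H2AC was at 0.334 and 0.481 CPM against 0.774 to 1.44 CPM, a log2 fold change of -1.57 ± 0.42 (SE).

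**Figure D2:**
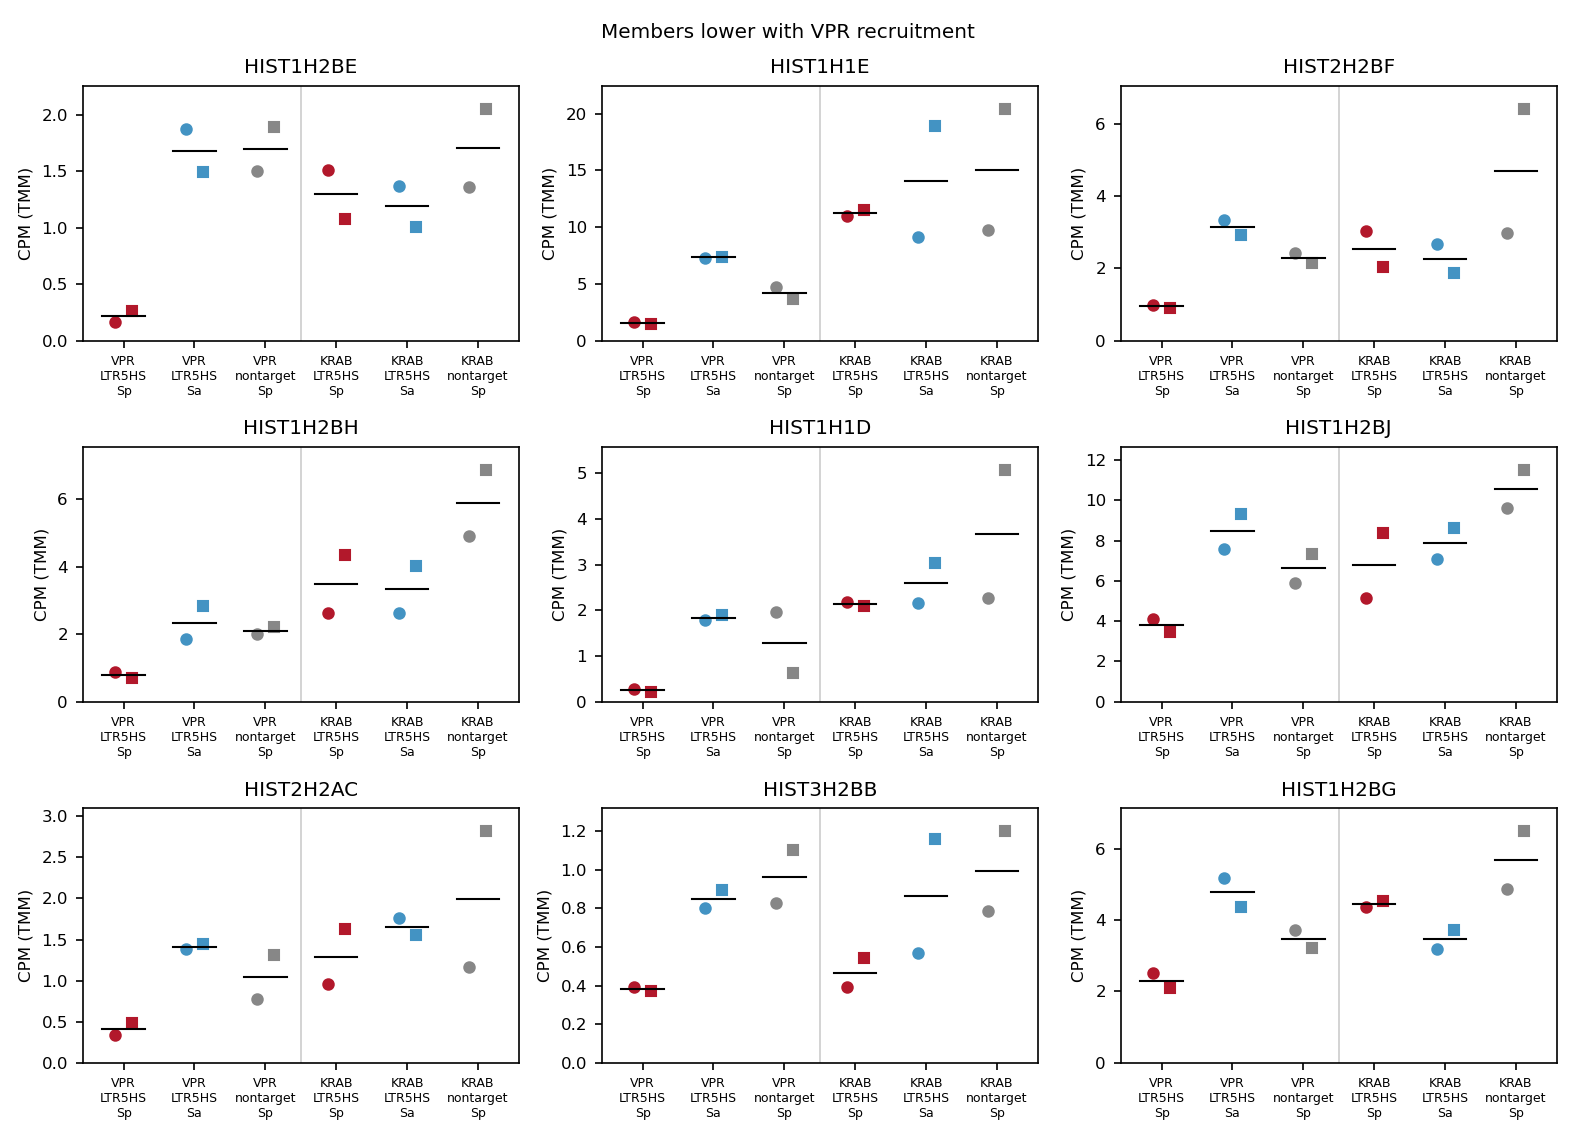
Level in CPM (TMM scaling, linear axes from 0) of the 9 members that fell with VPR recruitment, in each of the 12 libraries, with circles for replicate 1, squares for replicate 2 and a line at the mean of the 2. Both VPR LTR5HS Sp libraries lie below all 4 VPR control libraries in each panel, while the KRAB LTR5HS Sp libraries overlap the KRAB controls in every panel but that of HIST3H2BB. The 9 were picked by the test on the same VPR libraries.

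The most abundant members of the H2A, H3 and H4 types gave no call. HIST1H2AC was at 19.3 and 21.5 CPM with VPR recruitment and between 14.2 and 26.9 CPM in the controls, with a log2 fold change of 0.02 ± 0.25 (SE). HIST1H4H was at 4.51 and 5.08 CPM within a control range of 4.31 to 6.41 CPM. HIST1H3H was at 4.62 and 4.38 CPM, above the highest control value of 3.88 CPM, but its change of 0.64 ± 0.28 (SE, log2) missed the threshold (adjusted p = 0.13, edgeR). HIST1H2BK was at 43.1 and 34.6 CPM, below the control range of 47.7 to 56 CPM, with a log2 fold change of -0.38 ± 0.13 (SE, adjusted p = 0.0654, edgeR).

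**Figure D3:**
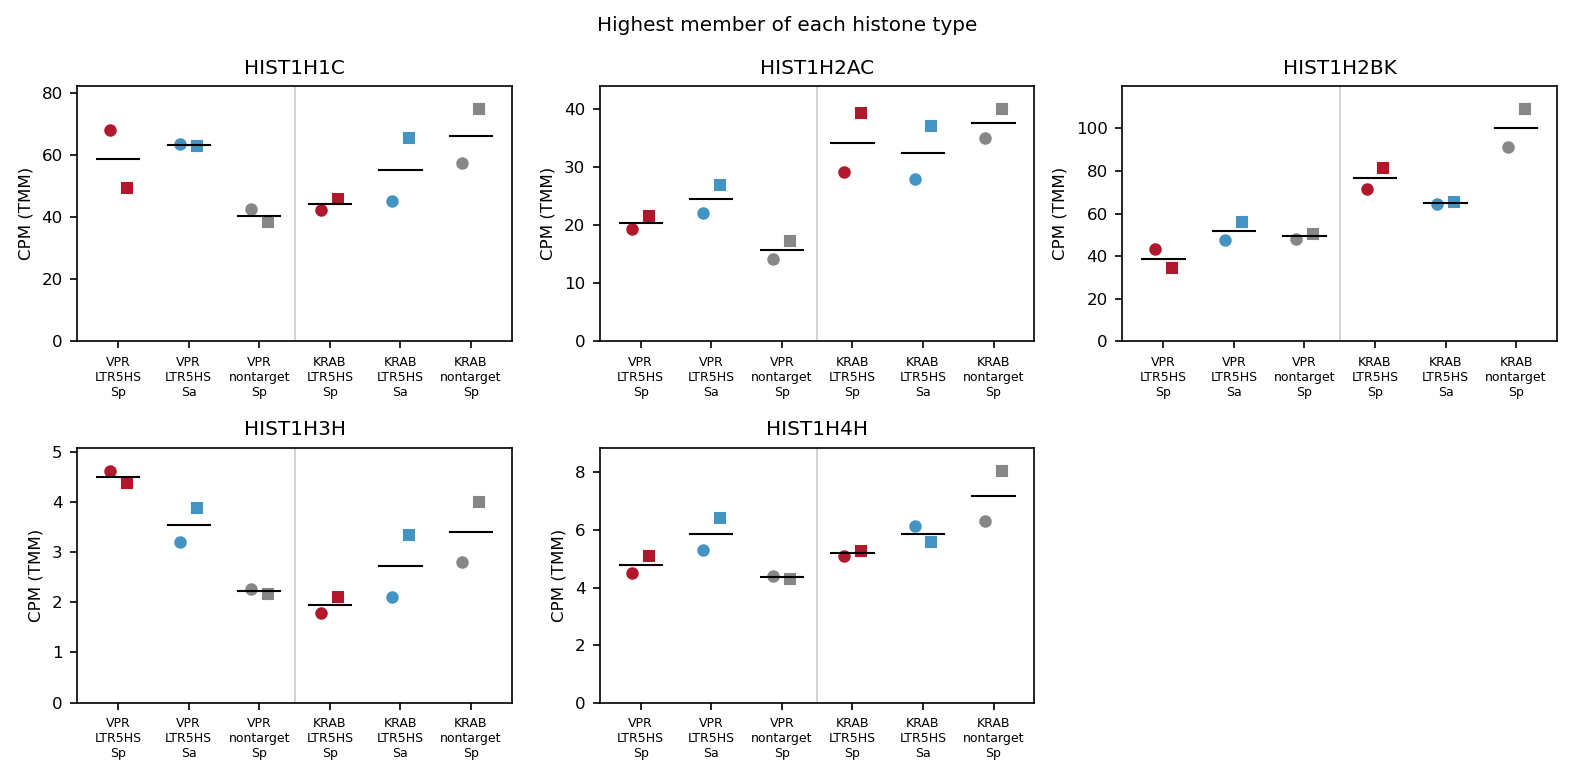
Level in CPM (TMM scaling, linear axes from 0) of the member with the highest mean RPKM in each histone type, in each library, with circles for replicate 1, squares for replicate 2 and a line at the mean of the 2. The VPR recruitment libraries of HIST1H2AC and HIST1H4H lie inside the range of their VPR controls, and those of HIST1H3H above it. For HIST1H1C, replicate 1 at 68 CPM lies above the highest VPR control of 63.7 CPM, and replicate 2 lies inside the range.

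By type, the median log2 fold change with VPR recruitment was -1.89 for the 3 tested H1 genes, -0.11 for 9 H2A, -0.92 for 14 H2B, -0.2 for 7 H3 and -0.66 for 7 H4 genes. All 14 tested H2B genes were below 0. The medians were -0.7 for the 24 tested members with no annotated end past the stem-loop (5 fell) and -0.36 for the 14 with one (4 fell). No difference between these classes was tested.

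The calls depended on the control line and on each recruitment library. Against LTR5HS Sa alone 14 members fell (16.1% of all tested genes fell), and against nontarget Sp alone 6 fell and 2, HIST1H1C and HIST1H3H, rose (13.5% and 16.4% of all). HIST1H1C rose by 0.55 and HIST1H3H by 1.03 on the log2 scale in that fit. Without recruitment replicate 1 the fit called 3 members lower, HIST1H2BE, HIST1H1E and HIST1H2BH, against 4.13% of all tested genes, and without recruitment replicate 2 it called 2, HIST1H2BE and HIST1H4E, against 4.52%. HIST2H2AC was also lost without LTR5HS Sa replicate 1, HIST1H2BG without either LTR5HS Sa library or nontarget Sp replicate 1, and HIST3H2BB without either LTR5HS Sa library or nontarget Sp replicate 2. HIST1H3C, an H3 gene named here after its values were seen, did not pass the filter but had 10 and 8 counts in the VPR recruitment libraries and at most 1 in each of the other 10. Its sum of 23 counts met the rule for members only through those recruitment libraries. Its place among the members and its higher level thus rest on the same counts.

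Cell-cycle and lineage genes moved in the same comparison. Of 20 G2 and M genes, 20 fell with VPR recruitment, with a median log2 fold change of -0.69, and AURKB, a mitotic kinase, was at 30.7 and 33.5 CPM against 81.3 to 91.8 CPM in the controls. Of 36 S-phase genes 20 fell and 1 rose, with a median of -0.47. GINS2, a subunit of the replicative helicase, was at 15.9 and 16.4 CPM against 29.2 to 33.9 CPM. CDKN2A, which encodes the cell-cycle inhibitor p16, was at 72.4 and 76 CPM against 12 to 16.3 CPM and rose by 2.41 on the log2 scale. It is 1 of 16 arrest and differentiation genes, of which 4 rose and 3 fell. Of the RNAs without a poly(A) tail 15 were tested, and 1 rose and 2 fell. MYH6, a cardiac myosin, was at 23.3 CPM in both recruitment libraries against 2.63 to 3.63 CPM in the controls, a log2 fold change of 2.96. GATA3, a trophoblast regulator, changed by 1.48, GATA6, an endoderm regulator, by 1.29 and L1TD1, expressed in pluripotent cells, by 1.62 on the log2 scale. The pluripotency factor SOX2 changed by -1.24, the DNA methyltransferase DNMT3B by -0.62 and the neural tubulin TUBB3 by -0.7, and all of these passed the test. In all 1 of 10 pluripotent markers rose and 3 fell. Of the tested lineage markers, 1 of 3 mesoderm, 1 of 2 endoderm and 1 of 1 trophoblast genes rose, and 1 of 3 neural genes fell. The lists did not move as a whole, since 1 mesoderm and 1 endoderm gene were below 0 and 1 neural gene was above 0. The part of these cell-cycle and lineage genes in the histone result was not tested.

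Among genes that make and process histone mRNA, 4 of 34 rose with VPR recruitment (11.8%) and 3 fell (8.82%). Both shares were below those of all tested genes given above. SLBP, the stem-loop binding protein, was at 22.9 and 25.8 CPM against 31 to 34.6 CPM and fell by 0.43 on the log2 scale (SE 0.12, adjusted p = 0.0307, edgeR), a call that was lost in 7 of 15 alternatives. ZNF473, the zinc finger protein of the U7 machinery, was at 26.2 and 24.7 CPM against 15.7 to 19.1 CPM, a log2 fold change of 0.55. The calls of ZNF473 and CDK2 were each lost in 4 of 15 alternatives and that of CCNE2 in 3. NCBP2, a cap-binding subunit, rose by 0.9, CCNE2, cyclin E2, by 0.99 and CDK2, its kinase partner, by 0.52 on the log2 scale, and E2F1, an activator of S-phase genes, fell by 0.86. CPSF2, of the cleavage complex, also fell, by 0.43. NPAT at 0.12, the H4 transcription factor HINFP at 0.32, CASP8AP2 (FLASH, a processing factor) at 0.35, LSM10 at -0.28 and LSM11 at -0.02, both of the U7 snRNP, and the exonuclease ERI1 at 0.06 (all log2 fold changes) did not pass the test.

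Histone genes outside the clusters gave 3 lower and 0 higher of 13 tested. H1F0, a linker histone of slowly dividing cells, was at 256 and 252 CPM against 564 to 749 CPM, a log2 fold change of -1.36. H1FX changed by -1.32 and H2AFZ by -0.58 on the log2 scale. Of 22 histone chaperones 8 fell and 1 rose. CHAF1B, a subunit of the chromatin assembly factor CAF-1, was at 13.6 and 14.1 CPM against 30.9 to 34.8 CPM, and NPM2, a chaperone of the oocyte, was at 8.97 and 8.98 CPM against 1.24 to 3.1 CPM.

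With KRAB recruitment 0 of 40 tested members passed the test, where 2.77% of all 15520 tested genes did (430 genes). Unadjusted p was under 0.05 for 3 of the 40 members and for 2109 of all 15520 tested genes, and DESeq2 called 0 members. The median log2 fold change was -0.4 against 0 over all genes, with 35 of the 40 below 0, and it was -0.17 without KRAB nontarget Sp replicate 2, when 0 members and 1.85% of all genes were called. HIST1H2BE was at 1.51 and 1.08 CPM with recruitment and at 1.37, 1.01, 1.36 and 2.05 CPM in the controls, with a log2 fold change of -0.2 ± 0.35 (SE). HIST1H1E was at 11 and 11.5 CPM, inside its control range of 9.16 to 20.4 CPM. HIST3H2BB, at 0.392 and 0.542 CPM, lay just below its lowest control of 0.569 CPM, and its change of -1.02 ± 0.45 (SE, log2) missed the threshold (adjusted p = 0.359, edgeR). Of the processing genes only NCBP2 passed the test, at 138 and 116 CPM against 207 to 379 CPM, and none of the 36 S-phase or 20 G2 and M genes did.

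**Figure D4:**
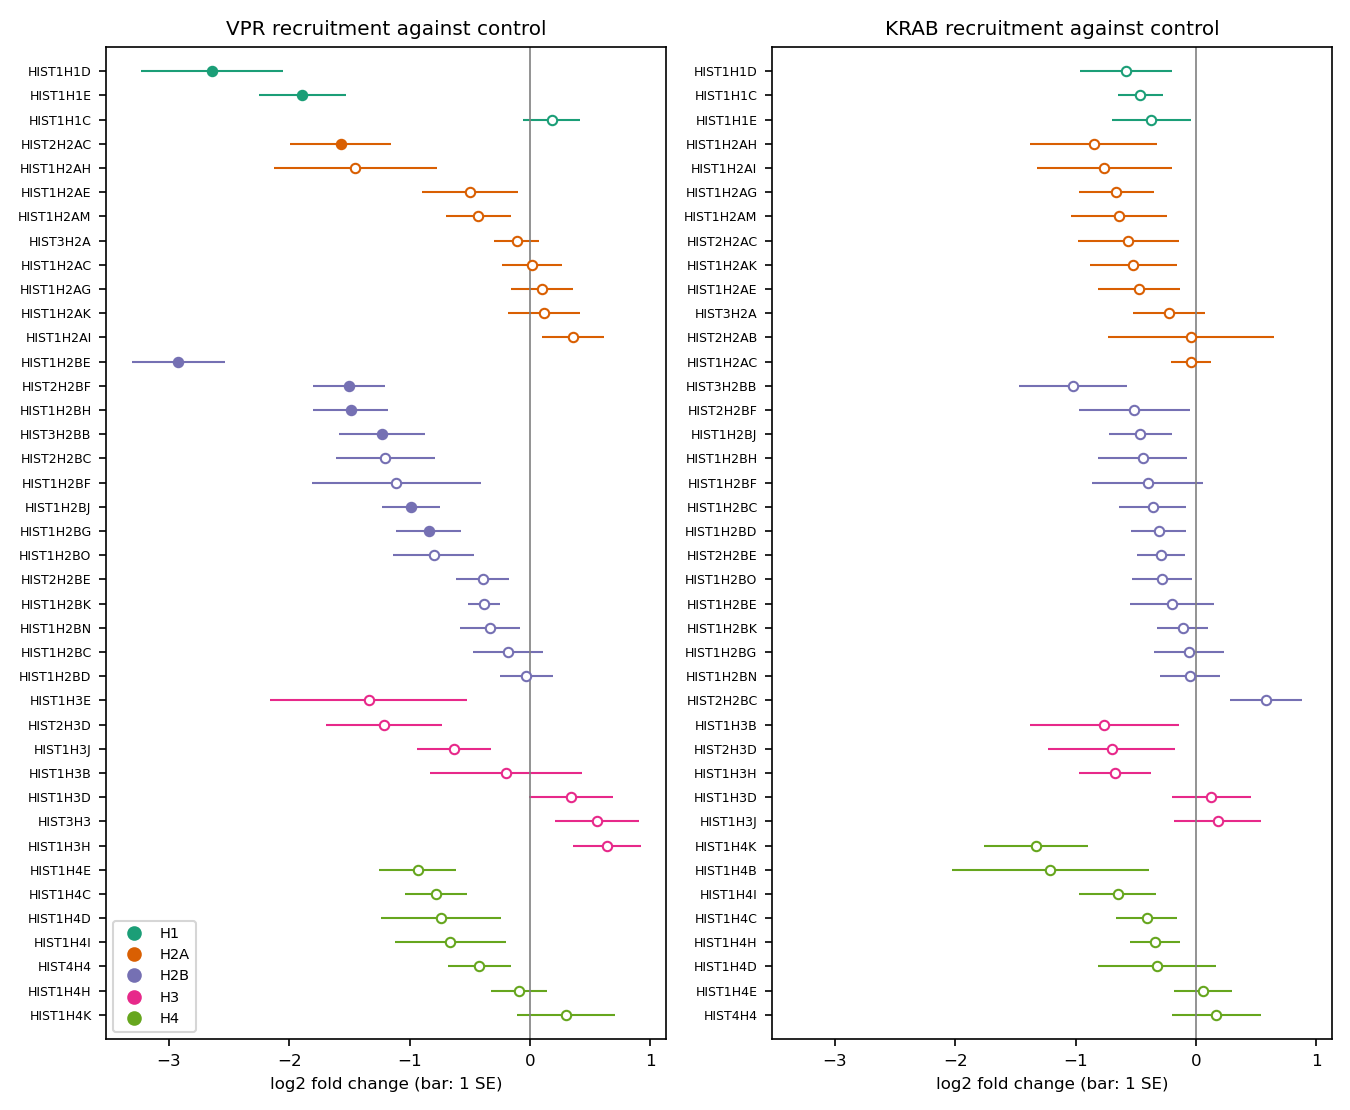
Log2 fold change of the 40 tested members in each comparison, VPR recruitment (left) and KRAB recruitment (right), with bars of 1 SE, coloured by histone type and filled where the edgeR adjusted p was under 0.05. The 9 filled points are all on the left, below 0, and include 6 H2B genes.

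The difference between the 2 recruitment effects was itself tested over all 12 libraries. HIST1H2BE differed, with a VPR effect lower than the KRAB effect by 2.72 ± 0.53 (SE, log2, adjusted p = 0.00269, edgeR), and it was called in all 17 alternatives. HIST2H2BC, an H2B pseudogene, was at 1.11 and 0.963 CPM with VPR recruitment against 1.65 to 3.73 CPM in the VPR controls, and at 2.07 and 3.12 CPM with KRAB recruitment against 1.37 to 2.33 CPM. Its difference was -1.78 ± 0.51 (SE, log2). HIST1H3H was at 4.62 and 4.38 CPM against 2.16 to 3.88 CPM with VPR and at 1.79 and 2.1 CPM against 2.11 to 3.99 CPM with KRAB, a difference of 1.31 ± 0.42 (SE, log2). HIST1H3H was above its controls with VPR and below them with KRAB, and its call was lost in 12 of 17 alternatives. In all 3 of 42 tested members differed (7.14%), against 21.0% of all 16673 tested genes. For the other 8 members that fell with VPR, the effects of the 2 fusions did not differ past the threshold in this fit. With the replicate as a block HIST1H1E also differed, by -1.58 on the log2 scale (adjusted p = 0.0436, edgeR), and DESeq2 called HIST1H1D and HIST1H1E besides the 3. The fit without KRAB nontarget Sp replicate 2 called 5, HIST1H2BE and HIST2H2BC with HIST1H1D, HIST1H1E and HIST2H2BF, where 17.8% of all genes were called. Without VPR LTR5HS Sp replicate 1 it called HIST1H2BE alone, where 14.1% of all genes were called, and HIST2H2BC was also lost without VPR LTR5HS Sp replicate 2 or KRAB LTR5HS Sp replicate 2.

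The control lines of the 2 fusions were also compared, VPR against KRAB. Of 42 tested members 12 were lower (28.6%) and 1 was higher (2.38%), where 30.3% and 28.8% of all tested genes were. The share lower was thus near that of all genes. HIST1H4C, an H4 gene, was at 3.57 and 3.78 CPM in VPR LTR5HS Sa and 3.05 and 2.52 CPM in VPR nontarget Sp, against 8.53, 9.94, 6.2 and 9.92 CPM in the KRAB controls. The groups did not overlap, and the log2 difference was -1.44 ± 0.18 (SE, adjusted p = 3.54e-05, edgeR). HIST1H2BK was at 47.7 to 56 CPM against 64.6 to 109 CPM, HIST1H2AC at 14.2 to 26.9 CPM against 27.9 to 39.9 CPM, HIST1H4E at 3.1 to 4.28 CPM against 5.43 to 8.83 CPM and HIST1H1E at 3.68 to 7.4 CPM against 9.16 to 20.4 CPM. These ranges did not overlap, whereas those of HIST2H2BE, 11.5 to 18 CPM and 17.4 to 28.3 CPM, did. These genes were named for their small adjusted p in the same comparison. HIST3H3, a testis H3 gene and the 1 member that was higher, was at 0.446 to 0.774 CPM against 0.0826 to 0.455 CPM, with a log2 difference of 1.47 ± 0.36 (SE).

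The median log2 difference of the members was -0.29, and -0.03 without KRAB nontarget Sp replicate 2, when 8 of the members were lower and 1 higher, against 27.2% and 25.8% of all genes. In the same comparison 20 of 20 G2 and M genes were lower, with a median of -0.7, and 7 of 16 tested RNAs without a poly(A) tail were lower and 1 higher. Of 34 genes that make and process histone mRNA, 12 were lower (35.3%) and 7 higher (20.6%), against 30.3% and 28.8% of all tested genes. Among them LSM11 was lower by 0.65 and CASP8AP2 by 0.73, while SLBP was higher by 0.26 on the log2 scale. The part of these and of the marker genes above in the histone values was not tested.

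**Figure D5:**
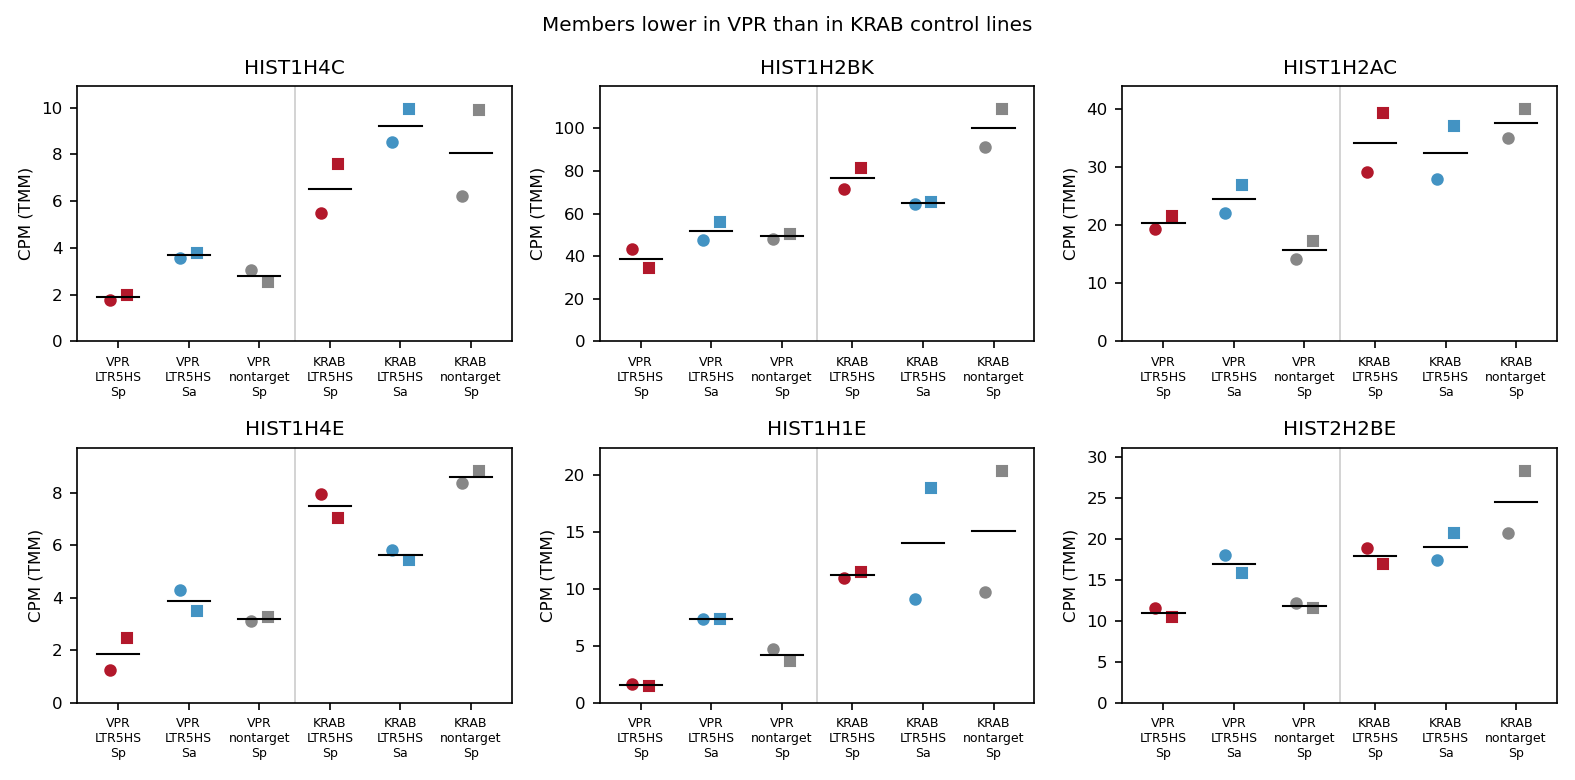
Level in CPM (TMM scaling, linear axes from 0) of the 6 members with the smallest adjusted p between VPR and KRAB control lines, in each library, with circles for replicate 1, squares for replicate 2 and a line at the mean of the 2. HIST1H4C lies at 2.52 to 3.78 CPM in the VPR control libraries and at 6.2 to 9.94 CPM in the KRAB ones.

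The control arrays were also set against each other within each fusion, since their difference enters every recruitment effect. With VPR, 38 of 42 tested members were higher in LTR5HS Sa than in nontarget Sp, with a median log2 difference of 0.41 against -0.02 over all genes, but 0 passed the test, where 5.24% of all genes did. Unadjusted p was under 0.05 for 9 of the 42 members and for 3127 of all 16673 tested genes. With the replicate as a block, 3 were higher, against 5.82% of all genes. These were HIST1H2AC, at 22.1 and 26.9 CPM against 14.2 and 17.2 CPM, with a log2 difference of 0.64 ± 0.12 (SE, adjusted p = 0.00274, edgeR), HIST1H1C by 0.65 and HIST1H2BD by 0.54. DESeq2 called the same 3. With KRAB the order was the other way, with 35 of 42 below 0 and a median of -0.37, and -0.11 without nontarget Sp replicate 2. None of the members passed the test, where 0.612% of all genes did (0.216% without nontarget Sp replicate 2), and unadjusted p was under 0.05 for 10. With the block HIST1H2BK and HIST1H2BD were lower in LTR5HS Sa, by 0.62 and 0.67 on the log2 scale, against 1.69% of all genes, and DESeq2 also called 2.

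Replicate 2 was compared with replicate 1 across the 6 lines. HIST3H2A, HIST1H2AC and HIST1H2BH were higher in replicate 2 and 0 members were lower, so 7.14% of the 42 tested were higher against 10.3% of all genes, and 9.7% of all genes were lower. HIST3H2A was at 14.8 and 18 CPM, 18.8 and 20.9 CPM, and 14 and 17.2 CPM in replicates 1 and 2 of the VPR LTR5HS Sp, LTR5HS Sa and nontarget Sp lines, and at 16.8 and 25.4 CPM, 20 and 36.4 CPM, and 16.1 and 25.9 CPM in those of the KRAB lines. Replicate 2 was above replicate 1 in all 6 lines, by 0.48 ± 0.1 (SE, log2, adjusted p = 0.00613, edgeR). HIST1H2AC was also higher in replicate 2 of all 6 lines, by 0.29 ± 0.07 (SE, log2). The median over the members was 0.26, with 39 of 42 above 0, and it was 0.13 without KRAB nontarget Sp replicate 2, when HIST3H2A and HIST1H2AC were called higher, against 4.63% of all genes higher and 3.97% lower. The call of HIST1H2BH was lost in 13 of 17 alternatives, DESeq2 among them. S-phase genes gave 9 higher and 1 lower of 36 in the same comparison.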

How the data were processed

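Polyadenylated RNA of 12 NCCIT libraries was sequenced in pairs. Per the labels, the authors used CASAVA 1.8, cutadapt 1.8.1, HISAT2 2.1.0 on hg38 and featureCounts 1.4.6-p2, and the deposited values are raw counts per gene, without normalization. A second deposited column gives gene length in bp and was used for RPKM. The annotation and the strand and multi-mapping settings are not given in the sources used here. Groups came from the sample labels.

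CPM and RPKM were scaled with TMM over 12 libraries. Tests used edgeR 4.0.16 (R 4.3.3) with filterByExpr, TMM, the quasi-likelihood test and Benjamini-Hochberg adjustment over all tested genes, called at 0.05. SE is the log2 fold change over the square root of F. Recruitment was tested in the 6 libraries of a fusion, and the difference of effects, control lines and replicates in all 12. Alternatives were DESeq2 1.42.0, its size factors, no filter, a threshold of 0.01, other control groupings, a replicate block and each library left out. The fitting steps were tested on simulated data.

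The members and gene lists were chosen with earlier results of these data known. Named were the member with the highest RPKM of each type, up to 12 members called for recruitment and up to 6 in other comparisons, 8 processing genes and up to 4 called genes of each other list. HIST1H3C, CPSF2, HIST3H3, NANOG, HAND1, RMRP and members given only by level, overlap or an alternative fit stand outside that rule.

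The study describes biological replicates. Differences between same-numbered libraries correlated between lines at 0.181 to 0.375 within a fusion and at 0.0569 to 0.333 across fusions. The number was used as pairing only in the replicate-block alternatives. The main tests of recruitment, of the difference of effects and of control lines had no replicate term. Promoters were taken from RefSeq GRCh38.p14 and stem-loops from hg38 with GENCODE models.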

Additional observations from a re-analysis of the deposited data

Results flagged for a closer look

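HIST1H1D in the VPR control libraries had 1 value far from the others: 0.631 CPM in nontarget Sp replicate 2 against 1.79 to 1.96 CPM in the other 3. In all, 40 groups of 4 control libraries were checked and 1 stood out, where chance alone marks about 1 in 20.

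The VPR and KRAB recruitment effects differed for 3 members by the test of the difference (edgeR, over all 12 libraries). The log2 difference, VPR minus KRAB, was -2.72 for HIST1H2BE, -1.78 for HIST2H2BC and 1.31 for HIST1H3H. HIST2H2BC overlaps an H4 gene, so the source of its reads is uncertain.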

How the results depend on the processing

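The count of members called with VPR recruitment was 9, and it was 14 with the control arrays as separate groups, 14 against LTR5HS Sa alone, 4 at a threshold of 0.01, and 2 to 9 when 1 library was left out. HIST1H2BE was called in each of these. Over all tested genes the share called was 28.0% in the main fit, 36.1% with separate groups and 34.9% against LTR5HS Sa alone. With KRAB the count of members called was 0 in every alternative, where the main fit called 2.77% of all genes. The difference between fusions gave 3 calls, and 5 with DESeq2, 1 at 0.01 and 1 to 5 with 1 library left out. The replicate comparison gave 3, and 0 without a line term (no replicate block by line), 1 at 0.01 and 2 to 4 with 1 library left out. LTR5HS Sa against nontarget Sp gave 0 calls with VPR (5.24% of all tested genes were called). It gave 3 with DESeq2 (4.96%), 2 with no filter (5.38%) and 3 with the replicate block (13.6%). With KRAB it gave 0 (0.612%), and 2 in each of these 3 settings (0.835%, 1.13% and 4.71%). The replicate block left the VPR recruitment count at 9 (30.5% of all genes were called) and the KRAB count at 0 (3.27%). It gave 4 calls for the difference between fusions (24.3%), adding HIST1H1E. For the control lines it gave 16 against 13 (66.9% against 59.1%), where the numbers do not pair the samples in every pair of lines. The control lines gave 9 to 17 with 1 library left out. Where 1 library of a line was left out, the other was assumed to vary like those of the other lines. Over all tested genes, the difference between fusions called 21.0% in the main fit and 16.7% with DESeq2. The replicate comparison called 20.0% of all genes, and 0% without a line term. With 1 control library left out, 6 to 9 members were called for VPR recruitment, where 23.2% to 28.6% of all genes were. The difference between fusions then called 2 to 5 members, where 17.8% to 21.3% of all genes were called. The other fits with 1 library left out leave 1 library in a group, and their shares are not given in this paragraph. The cause of these shifts was not tested.

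Small changes that did not pass the test turned sign. Against LTR5HS Sa alone the log2 fold change was -0.12 for HIST1H1C and -0.27 for HIST1H2AC with VPR, and with KRAB 0.08 for HIST1H2AC, 0.24 for HIST1H2BK, 0.17 for NPAT, -0.03 for SLBP and 0.03 for LSM11. Against nontarget Sp alone it was 0.15 for HIST1H4H and -0.02 for ERI1 with VPR. With 1 library left out, the values with VPR ran from -0.06 to 0.38 for HIST1H1C, -0.12 to 0.19 for HIST1H2AC, -0.19 to 0.04 for HIST1H4H, -0.19 to 0.12 for LSM11 and -0.03 to 0.14 for ERI1. With KRAB they ran from -0.27 to 0.16 for HIST1H2AC, -0.21 to 0.05 for HIST1H2BK, -0.21 to 0.07 for NPAT, -0.06 to 0.07 for SLBP and -0.06 to 0.01 for LSM11. Low counts limit HIST1H2BE and HIST1H1D, with 3 to 5 counts in each VPR recruitment library, and the oligo-dT selection limits every member.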
